A study of Mus musculus with 12 samples.

Results

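The genes described here are 10 genes of the complement system and of microglial phagocytosis, *C1qa*, *C1qb*, *C1qc*, *C3*, *C4b*, *Trem2*, *Tyrobp*, *Itgam*, *Aif1* and *Cd68*, taken by symbol from the 23183 genes that each library lists. Cortex and hippocampus came from male C57BL/6 mice, either sham treated (Con) or given a single dose of 10 Gy to the whole brain (IR), and were taken 3 months later, with 3 Con and 3 IR libraries per tissue and 12 in all. The mice were 7 weeks old on arrival and had 1 week of acclimatization. Levels are FPKM (fragment counts divided by transcript length and by the depth of the library), so levels of different genes can be compared per length. The labels do not say that each library is a separate mouse, so the p-values measure the spread between these libraries. In pieces of whole tissue, fewer microglia and less RNA per microglial cell cannot be told apart.

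Complement is a cascade of plasma proteins that microglia and astrocytes also make in the brain. The recognition molecule C1q, which is assembled from equal numbers of A, B and C chains, leads through C4 to the cleavage of C3, whose fragments are bound by complement receptor 3, the integrin of ITGAM (CD11b) and ITGB2. In development and in several models of disease this route marks synapses for removal by microglia. TREM2 is a lipid and lipoprotein receptor of microglia that signals through the adaptor TYROBP (DAP12), while AIF1 (IBA1) is an actin-binding protein and CD68 a lysosomal protein used to stain microglia and their phagocytic activity.

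On GRCm38, with the GENCODE M21 annotation, *C1qb*, *C1qc* and *C1qa* lie in this order on the minus strand of chromosome 4, between positions 136880129 and 136898803, within 18675 bases and with gaps of 3616 and 2851 bases. Each has 3 exons. *C4b* (chr17:34728380-34743882), *Aif1* (chr17:35170991-35176068) and *C3* (chr17:57203970-57228136) are on the minus strand of chromosome 17, and *Trem2* (chr17:48346401-48354147) is on its plus strand. *Tyrobp* (chr7:30413760-30417585) and *Itgam* (chr7:128062640-128118491) are on the plus strand of chromosome 7, and *Cd68* (chr11:69664213-69666153) is on the minus strand of chromosome 11. *Itgam* overlaps a protein coding gene model of the same strand, *Gm49368*, so the division of reads between them is uncertain.

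In the set of RefSeq promoters (GRCm38.p6) used here, 7 of the 10 genes were matched, and *C1qa*, *C4b* and *Tyrobp* were not. The 250 bases before the transcription start are shown for *Trem2*, *C1qc* and *Itgam*, whose IR libraries lay below all Con libraries in 1 or both tissues, and for *C1qb*, the neighbour of *C1qc* that did not show this. Capitals mark the core of the site of PU.1, the transcription factor of the gene *Spi1* that microglia depend on, as GAGGAA or, on the other strand, TTCCTC.
Trem2 promoter, chr17:48346151-48346400, plus strand, 5′ to 3′: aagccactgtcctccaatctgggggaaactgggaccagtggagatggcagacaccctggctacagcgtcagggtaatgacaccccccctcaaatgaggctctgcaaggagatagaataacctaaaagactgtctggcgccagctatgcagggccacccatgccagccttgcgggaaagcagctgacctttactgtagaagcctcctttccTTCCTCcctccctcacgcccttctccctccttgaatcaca
C1qc promoter, chr4:136892915-136893164, minus strand, 5′ to 3′: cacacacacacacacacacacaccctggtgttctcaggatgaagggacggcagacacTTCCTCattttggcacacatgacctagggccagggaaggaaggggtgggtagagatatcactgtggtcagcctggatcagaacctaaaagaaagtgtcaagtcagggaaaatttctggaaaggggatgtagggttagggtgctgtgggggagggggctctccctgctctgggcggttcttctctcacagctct
Itgam promoter, chr7:128062390-128062639, plus strand, 5′ to 3′: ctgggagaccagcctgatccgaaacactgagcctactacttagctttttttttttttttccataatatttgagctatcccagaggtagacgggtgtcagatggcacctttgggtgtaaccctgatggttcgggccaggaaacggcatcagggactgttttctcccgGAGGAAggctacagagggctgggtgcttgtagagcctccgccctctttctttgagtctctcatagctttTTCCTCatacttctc
C1qb promoter, chr4:136886201-136886450, minus strand, 5′ to 3′: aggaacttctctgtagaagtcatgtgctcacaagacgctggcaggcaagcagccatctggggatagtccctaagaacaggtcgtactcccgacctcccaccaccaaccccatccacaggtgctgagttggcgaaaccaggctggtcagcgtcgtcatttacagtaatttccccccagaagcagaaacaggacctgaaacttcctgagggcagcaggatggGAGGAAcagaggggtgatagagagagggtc
In windows from 250 bases before to 50 bases after the start, this core was present in 6 of the 7 matched promoters, all but that of *C3*, and in 28.3% of the 32851 promoters of the table. It began 40 bases before the start in *Trem2*, 30 in *C1qb*, 193 in *C1qc* and 84 and 15 in *Itgam*, which held a further match after its start. Of 3 other patterns searched on both strands, the composite ETS and IRF core GAANNGAAA was found in *Cd68* alone (7.52% of all promoters), the interferon response core AAANNGAAA in *Aif1* alone (10.6%) and the STAT pattern TTCNNNGAA in none of the 7 (8.3%). GAANNGAAA and AAANNGAAA share their last letters and can overlap each other. These matches describe the letters in the windows and were not tested as binding sites.

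The libraries had similar sums of FPKM, from 359773 to 393447. The steps between the lowest values put them at roughly 16100000 to 17900000 fragments each, an estimate that was not checked against reads. By the same estimate *Trem2* had 96 to 168 fragments per library, a C1q chain 427 to 632, *Aif1* 38 to 94 and *C3* 2 to 50. Of the 18 listed homeostatic microglia genes, 17 passed the filter in each tissue. Microglial genes differed in level, for example *Cx3cr1* at 9.68 to 15.5 FPKM and *Slc2a5* at 0.667 to 1.66 FPKM over the 12 libraries. The hippocampus library Con 1 stood apart. It listed *S100a8*, a neutrophil gene, at 382 FPKM and *Ccl5*, a chemokine gene, at 18.8 FPKM, against at most 0.917 and 0.337 FPKM in any other library. *S100a9*, the usual companion of *S100a8*, was at 0.652 FPKM there. The 7 listed monocyte and neutrophil genes summed to 384 FPKM in Con 1, nearly all of it from *S100a8* alone, and to at most 1.20 FPKM elsewhere. The 8 T and B cell genes summed to 1.595 FPKM against at most 0.930 FPKM, with *Ms4a1* at 0 in every hippocampus library. *Alas2*, of the blood list, was at 22.5 FPKM in Con 1 and at most 1.86 FPKM in any other library. The hippocampus tests of the 10 genes with an unadjusted p under 0.05 and the list counts are therefore given with and without Con 1. The source of these transcripts and their part in the results were not tested. The 7 choroid plexus genes summed to 67.6 FPKM in hippocampus Con 2 and 83.0 FPKM in hippocampus IR 1, against 6.50 to 11.2 FPKM in the other hippocampus libraries, and to 16.1 FPKM in cortex IR 2, against 2.06 to 4.19 FPKM in the other cortex libraries. The part of this tissue in the results was not tested. Values without these libraries are given for tests of the 10 genes, but not for the lists or their other genes. Among the IR hippocampus libraries, IR 1 was the highest for *Cfp*, *Lyz2* and *Mrc1*, which are described below.

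In the Con cortex the 3 C1q chains were the most abundant of the 10 genes, at 28.9 to 30.4 FPKM, and did not differ from each other beyond their spread. *Tyrobp* followed at 15.6 FPKM and *Trem2* at 8.72 FPKM. *Aif1* (5.54 FPKM), *Cd68* (5.52 FPKM), *Itgam* (4.43 FPKM) and *C4b* (3.68 FPKM) came next, and the libraries of each pair of neighbours in this order overlapped. *C3* was lowest at 0.0373 FPKM. In the Con hippocampus the C1q chains (29.8 to 30.7 FPKM) and *Tyrobp* (15.7 FPKM) again came highest, *C4b* (10.1 FPKM) overlapped *Trem2* (7.88 FPKM), and *Itgam* (5.52 FPKM), *Cd68* (4.61 FPKM) and *Aif1* (4.34 FPKM) overlapped each other, with *C3* at 0.272 FPKM. The ratio of *C1qa* to *C1qc* was 0.809 to 1.20 over the 12 libraries and that of *C1qb* to *C1qc* was 0.880 to 1.24, so the transcripts of the chains were present in nearly equal amounts per length.

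**Figure D1:**
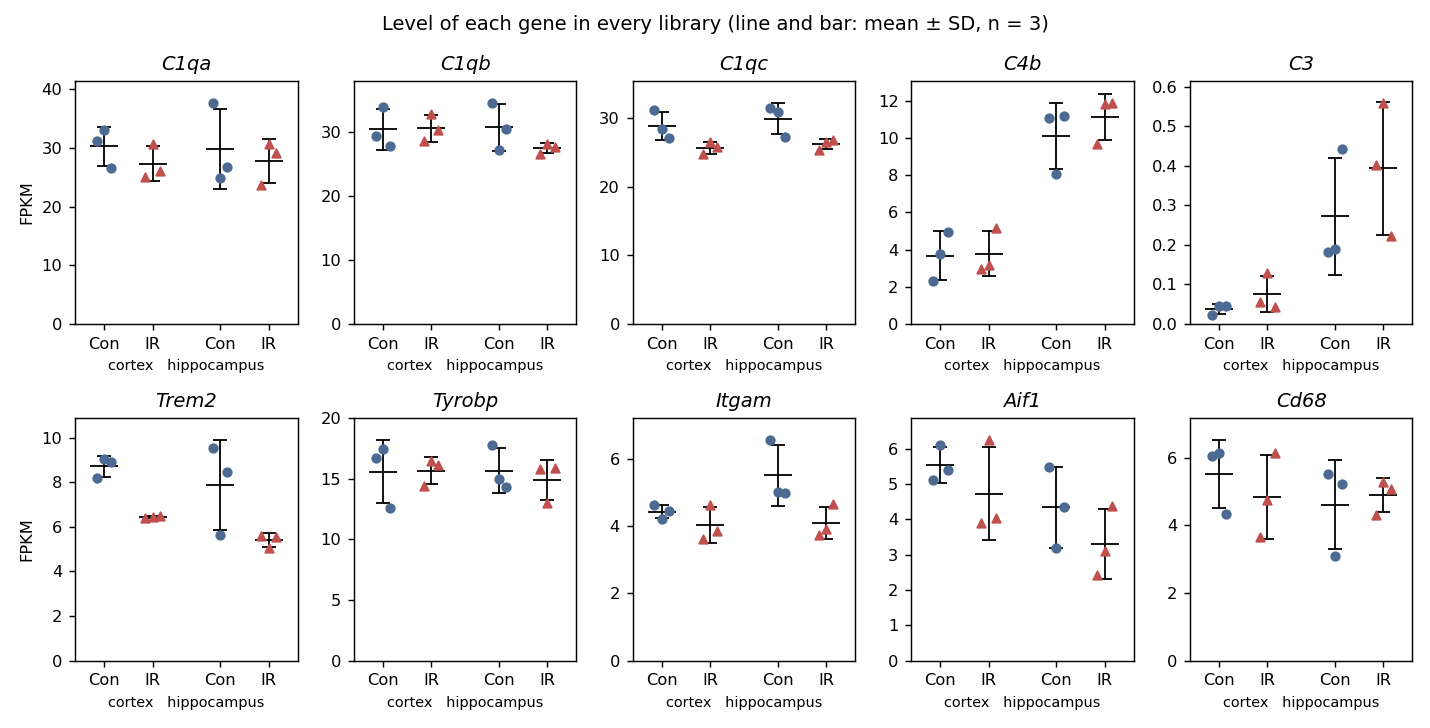
FPKM of the 10 genes in each library (dots Con, triangles IR), with cortex on the left and hippocampus on the right of each panel and the mean and SD of 3 libraries as a line and bars. *Trem2* is lower in every cortex IR library (6.41 to 6.48) than in any cortex Con library (8.18 to 9.06), and *C4b* is higher in the hippocampus than in the cortex in both groups.

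The comparison of IR with Con asks whether irradiation left these genes at another level 3 months later. Of the 10 genes, *Trem2* fell in the cortex, and no other gene passed the adjusted test in either tissue. By the unadjusted test alone, *C1qc* was lower in IR in both tissues, and *Trem2* and *Itgam* were lower in the hippocampus. *Tyrobp*, *C1qa*, *C1qb*, *C4b*, *Aif1* and *Cd68* passed neither test in either tissue, and *C3* was too low to be tested. None of the 10 genes was higher in IR at an unadjusted p under 0.05.

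*Trem2* was listed at 8.18, 9.06 and 8.93 FPKM in the 3 Con cortex libraries and at 6.41, 6.45 and 6.48 FPKM in the 3 IR cortex libraries. The groups did not overlap. The Con mean was 8.72 ± 0.470 FPKM and the IR mean 6.45 ± 0.0361 FPKM (SD, n = 3), and *Trem2* fell by 0.38 on the log2(FPKM + 1) scale (SE 0.07, adjusted p = 0.0396 from limma). The spread of the IR libraries, a coefficient of variation of 0.559%, was below the 9.11% that counting alone would give at the estimated median of 120.5 fragments. The call was near the threshold: the adjusted p was 0.0741 without Con 2, 0.110 without Con 3, 0.163 without IR 1, 0.126 without IR 2 and 0.112 without IR 3, and 0.0490 without Con 1, while the log2 change stayed between -0.42 and -0.36. It was also lost under 4 of the 7 alternatives that kept all libraries, among them fits without a filter (0.0891), with limma without trend and robust prior (0.0683) and in a joint fit of the 12 libraries (0.248).

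In the hippocampus *Trem2* was at 9.55, 5.63 and 8.46 FPKM in Con and at 5.59, 5.06 and 5.56 FPKM in IR. All IR libraries lay below all Con libraries, with Con 2 only just above IR 1. The log2 change was -0.44 (SE 0.16) with an unadjusted p of 0.0229 and an adjusted p of 0.315 from limma. Without Con 1, its highest library, the log2 change was -0.31 with an unadjusted p of 0.0732 from limma. The unadjusted p was also above 0.05 without Con 3 (0.0726) or IR 2 (0.0659), and without Con 2, the lowest Con library, it was 0.000223.

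*Tyrobp*, the adaptor through which TREM2 signals, was at 16.7, 17.5 and 12.6 FPKM in Con cortex and at 14.4, 16.5 and 16.1 FPKM in IR cortex. In the hippocampus it was at 17.8, 14.97 and 14.3 FPKM in Con and at 15.8, 13.02 and 15.9 FPKM in IR. The groups overlapped in both tissues. The log2 change was 0.02 in the cortex, with a 95% interval of -0.23 to 0.26, and -0.07 in the hippocampus, with an interval of -0.31 to 0.17 (adjusted p = 0.963 and 0.779 from limma). The ratio of *Trem2* to *Tyrobp* in the same library was 0.489 to 0.708 in Con and 0.391 to 0.445 in IR in the cortex, without overlap. In the hippocampus the ratios were 0.376 to 0.591 in Con and 0.350 to 0.389 in IR, and overlapped through Con 2. These ratios were formed after the values had been seen and are given without a test.

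**Figure D2:**
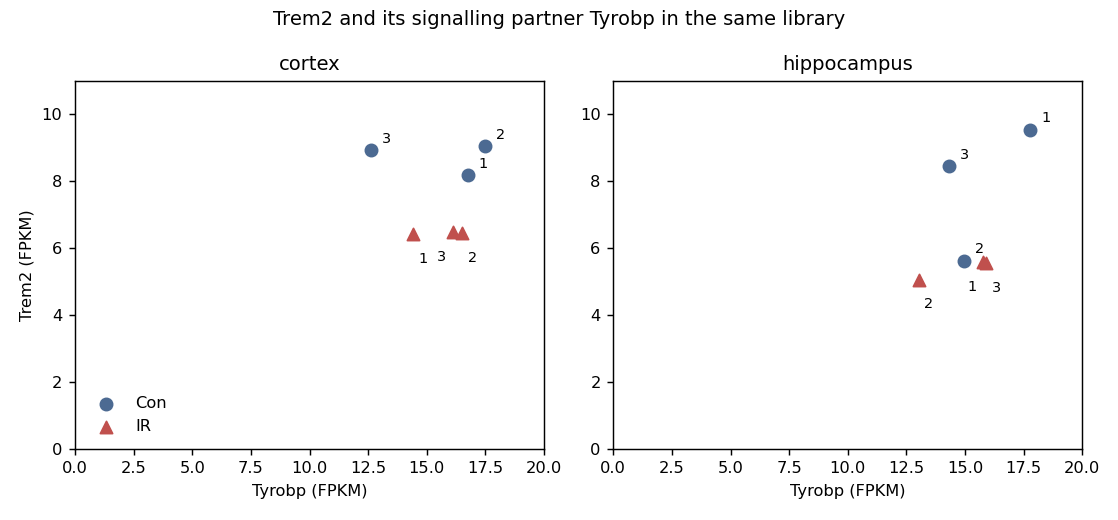
FPKM of *Trem2* (vertical) against FPKM of *Tyrobp* (horizontal) in the cortex and the hippocampus, with the library number beside each Con (dot) and IR (triangle) library. In the cortex the IR libraries lie along 6.41 to 6.48 FPKM of *Trem2* within the range of *Tyrobp* in Con, and in the hippocampus Con 2 lies beside the IR libraries.

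*C1qc*, the C chain, was at 31.1, 28.4 and 27.1 FPKM in Con cortex and at 24.7, 26.4 and 25.8 FPKM in IR cortex. It was at 31.4, 30.9 and 27.2 FPKM in Con hippocampus and at 25.3, 26.5 and 26.8 FPKM in IR hippocampus. In both tissues every IR library lay below every Con library, by a small margin. The log2 change was -0.16 (SE 0.06) in the cortex and -0.18 (SE 0.07) in the hippocampus, with unadjusted p of 0.0276 and 0.0360 and adjusted p of 0.290 and 0.341 from limma. The unadjusted p rose to 0.124 in the cortex without Con 1 and to 0.104 in the hippocampus without Con 1, and it was also above 0.05 without IR 1 (0.0948) or IR 3 (0.0575) in the cortex. In the hippocampus it stayed under 0.05 only when Con 3 was left out (0.00390).

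The A and B chains did not separate the groups. *C1qa* was at 31.2, 33.1 and 26.6 FPKM in Con cortex and at 25.1, 30.7 and 26.1 FPKM in IR cortex, with a log2 change of -0.14 (adjusted p = 0.539 from limma). In the hippocampus it ranged from 24.95 to 37.7 FPKM in Con, with Con 1 highest, and from 23.6 to 30.7 FPKM in IR. Its log2 change there was -0.08 (adjusted p = 0.830 from limma) and turned to 0.09 without Con 1. *C1qb* had a log2 change of 0.01 in the cortex, with a 95% interval of -0.17 to 0.19, and of -0.15 in the hippocampus, with an interval of -0.35 to 0.05 (adjusted p = 0.972 and 0.459 from limma). Its cortex direction turned under quantile normalization (-0.0056).

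*C4b*, which carries the cascade from C1 to C3, was at 2.32, 3.78 and 4.93 FPKM in Con cortex and at 2.97, 3.20 and 5.17 FPKM in IR cortex. In the hippocampus it was at 11.1, 8.07 and 11.2 FPKM in Con and at 9.69, 11.8 and 11.9 FPKM in IR. The groups overlapped in both tissues, and the cortex values varied widely within each group. The log2 change was 0.04 (95% interval -0.49 to 0.58) in the cortex and 0.13 (-0.17 to 0.44) in the hippocampus (adjusted p = 0.957 and 0.645 from limma).

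*C4b* has a close copy, *C4a*, whose transcript is 96.1% identical, and 16.5% of all 100-base stretches of the *C4b* transcript also occur in *C4a*. The division of reads between the copies is therefore uncertain. *C4a* stayed below the filter. It was listed at 0.236, 0.354 and 0.310 FPKM in Con cortex and at 0.552, 0.510 and 0.478 FPKM in IR cortex, and at 0.306, 0.311 and 0.361 FPKM in Con hippocampus and 0.640, 0.413 and 0.395 FPKM in IR hippocampus. Every IR library was above every Con library in both tissues. Without a filter the log2 change of *C4a* was 0.22 in cortex and 0.16 in hippocampus, with unadjusted p of 0.00643 and 0.0836 and adjusted p of 0.248 and 0.480 from limma.

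*C3*, the central component on which the pathways converge, was at 0.0224, 0.0448 and 0.0447 FPKM in Con cortex and at 0.0554, 0.128 and 0.0435 FPKM in IR cortex. In the hippocampus it was at 0.183, 0.191 and 0.442 FPKM in Con and at 0.401, 0.559 and 0.223 FPKM in IR. These levels rest on an estimated 2 to 50 fragments, the groups overlapped, and *C3* passed the filter in neither tissue. Without a filter its adjusted p was 0.681 in cortex and 0.668 in hippocampus (limma), on a log2(FPKM + 1) scale that compresses differences between values this low.

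*Itgam*, the CD11b subunit of complement receptor 3, was at 6.57, 5.01 and 4.98 FPKM in Con hippocampus and at 3.74, 3.91 and 4.65 FPKM in IR hippocampus. All IR libraries lay below all Con libraries, and Con 1 was the highest. The log2 change was -0.35 (SE 0.12), with an unadjusted p of 0.0180 and an adjusted p of 0.300 from limma. Without Con 1 the log2 change was -0.24 and the unadjusted p was 0.0534, and it was also above 0.05 without IR 1 (0.0612) or IR 2 (0.0547). In the cortex *Itgam* was at 4.62, 4.23 and 4.45 FPKM in Con and at 3.63, 4.65 and 3.86 FPKM in IR, with a log2 change of -0.11 (adjusted p = 0.638 from limma). *Itgb2*, the other subunit of the receptor, had unadjusted p above 0.05 in both tissues.

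*Aif1* was at 5.11, 6.11 and 5.40 FPKM in Con cortex and at 3.88, 6.25 and 4.05 FPKM in IR cortex. In the cortex IR 1 and IR 3 were below all Con libraries and IR 2 was above them. The hippocampus values were 5.49, 3.20 and 4.34 FPKM in Con and 2.43, 3.11 and 4.37 FPKM in IR, with Con 1 again highest. The log2 change of *Aif1* was -0.21 (95% interval -0.53 to 0.11) in the cortex and -0.31 (-0.77 to 0.14) in the hippocampus (adjusted p = 0.549 and 0.482 from limma). *Cd68* ranged from 4.35 to 6.15 FPKM in Con cortex and from 3.65 to 6.13 FPKM in IR cortex, and from 3.10 to 5.51 FPKM in Con hippocampus and from 4.32 to 5.28 FPKM in IR hippocampus. Its log2 change was -0.17 (-0.54 to 0.20) in the cortex and 0.10 (-0.30 to 0.49) in the hippocampus (adjusted p = 0.695 and 0.818 from limma).

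**Figure D3:**
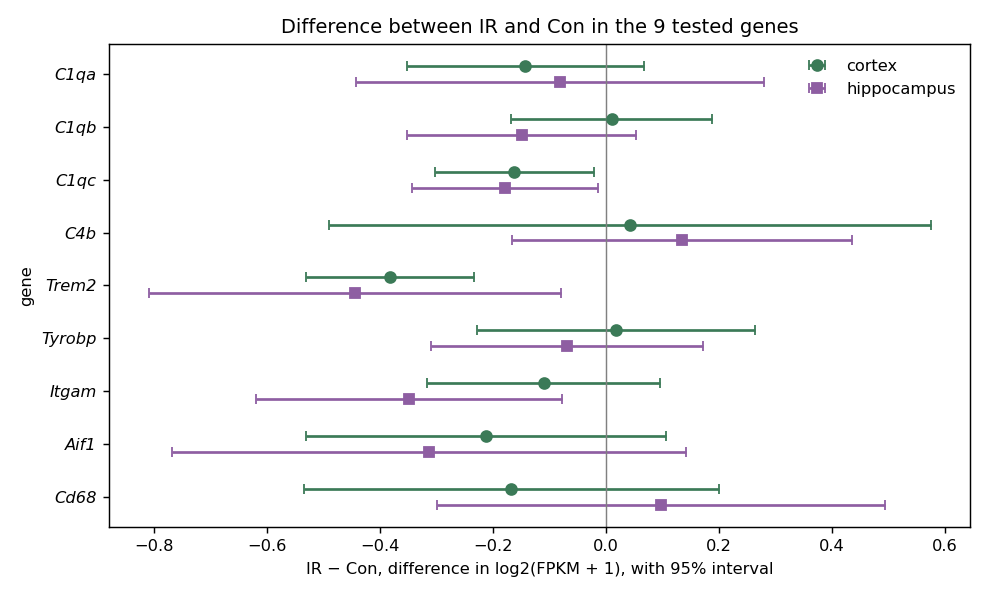
Difference between IR and Con in log2(FPKM + 1) for the 9 tested genes, with 95% intervals from limma, for the cortex (circles) and the hippocampus (squares). The intervals of *Trem2* and *C1qc* lie below 0 in both tissues and that of *Itgam* in the hippocampus, while the other intervals include 0; these intervals are not adjusted for the number of genes.

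Over the group, 9 of the 10 genes passed the filter in both tissues, which required 0.5 FPKM or more in 3 or more of a tissue's 6 libraries. In the cortex 1 of the 9 passed an adjusted p under 0.05, against 0.725% of the 14065 genes tested. At an unadjusted p under 0.05, 2 were lower in IR, against 5.94% of all genes tested, and 0 were higher, against 8.16%. Every IR library lay below every Con library in 2 of the 9, against 9.09% of all genes. The median log2 change was -0.14 for the 9 genes and 0.0016 for all genes tested. In the hippocampus 0 of the 9 passed the adjusted test, against 0.0285% of the 14043 genes tested by limma, 3 were lower at an unadjusted p under 0.05 (6.89% of all genes) and 0 higher (7.06%). Every IR library lay below every Con library in 3 of the 9, against 9.36% of all genes, and the median was -0.15 against -0.010 for all genes.

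Without Con 1 of the hippocampus, 0 of the 9 were lower at an unadjusted p under 0.05, against 4.19% of the 13942 genes then tested. The libraries still did not overlap in 3 of the 9, against 13.1% of all genes, and the median was -0.06. Con 1 was the highest Con hippocampus library in *C1qa*, *C1qb*, *C1qc*, *Trem2*, *Tyrobp*, *Itgam*, *Aif1* and *Cd68*. Of the libraries with more choroid plexus RNA, leaving out Con 2 left 4 of the 9 genes with an unadjusted p under 0.05 (9.30% of all genes tested), *Aif1*, *C1qb*, *Itgam* and *Trem2*, and leaving out IR 1 left *Trem2* (8.35%). In the cortex, leaving out IR 2 left 4 of the 9, *Aif1*, *C1qa*, *C1qc* and *Trem2* (11.7%), all of them lower in IR.

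For the interaction of irradiation and tissue, which asks whether the change differed between hippocampus and cortex, 0 of the 9 genes had an adjusted p under 0.05 (0.083% of the 14459 genes tested by limma) and 0 an unadjusted p under 0.05 (10.4%). The lowest p was that of *Itgam*, with a difference of -0.24 in log2 change (95% interval -0.57 to 0.09, unadjusted p = 0.145, adjusted p = 0.597). For *Trem2* the difference was -0.06 (-0.45 to 0.33, adjusted p = 0.927 from limma).

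Between the tissues the clearest difference was that of *C4b*. In Con it was 2.75 times as high in the hippocampus as in the cortex by the ratio of means, with all hippocampus libraries above all cortex libraries and a log2 difference of 1.27 (SE 0.21, adjusted p = 0.000414 from limma), where 44.2% of all genes tested passed the same threshold. Leaving out each Con library gave log2 differences of 1.05 to 1.47, all past the threshold. The Con level of *C3* was 7.29 times as high by the ratio of means, on few fragments. *Itgam* was higher in the hippocampus by 0.26 on the log2 scale (unadjusted p = 0.0352, adjusted p = 0.0733 from limma), and the C1q chains differed by -0.04 to 0.05. The names of the value columns differ between the tissues, so tissue and a possible processing run cannot be told apart.

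The wider complement lists held few genes past the unadjusted test and none past the adjusted test. By the unadjusted test, 5.94% of all genes were lower and 8.16% higher in cortex, and 6.89% and 7.06% in hippocampus. Of 7 tested genes of the classical pathway in cortex and 5 in hippocampus, *C1qc* alone had an unadjusted p under 0.05, in each tissue, and the medians were 0.0094 and -0.083. Without Con 1 none of the 5 passed in the hippocampus and the median turned to 0.092. The proteases of C1, *C1ra* and *C1s1*, and *C2* had unadjusted p above 0.05 wherever they were tested. Of 9 complement receptor genes, 3 were tested in the cortex with none past the unadjusted test and a median of -0.11, and 4 in the hippocampus with *Itgam* past it and a median of 0.022. Without Con 1, 3 were tested there with none past it and a median of 0.083. *C5ar1* and *Itgax* were at or below 0.416 and 0.080 FPKM in every library, and *Vsig4* was at 0 in all 12.

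Of the 6 tested genes of the lectin, alternative and terminal pathways, *Cfp* was higher in IR in each tissue by the unadjusted test. That test found 8.16% of all genes higher in the cortex and 7.06% in the hippocampus. *Cfp* encodes properdin, which stabilizes the C3 convertase of the alternative pathway. It was at 3.63, 5.07 and 5.04 FPKM in Con cortex and at 7.92, 6.28 and 6.99 FPKM in IR cortex, without overlap. The log2 change was 0.54 (SE 0.12, unadjusted p = 0.00121, adjusted p = 0.0916 from limma). In the hippocampus it was at 3.59, 3.33 and 4.66 FPKM in Con and at 7.78, 4.40 and 6.00 FPKM in IR, overlapping through IR 2 and Con 3. The log2 change there was 0.52 (SE 0.18, unadjusted p = 0.0194, adjusted p = 0.300 from limma), and without Con 1 it was 0.48, with an unadjusted p of 0.0533, so that none of the 6 passed. The medians of the list were -0.081 in cortex and 0.17 in hippocampus, or 0.21 there without Con 1.

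Of the complement regulators, 16 were tested in the cortex, where 2 were lower at an unadjusted p under 0.05, against 5.94% of all genes. The median there was -0.046. In the hippocampus 14 were tested, none passed with or without Con 1, and the median was 0.027 or, without it, 0.040. *Cd46*, a cofactor in the inactivation of C3b and C4b, had a Con cortex mean of 1.08 ± 0.278 FPKM and an IR cortex mean of 0.590 ± 0.156 FPKM (SD, n = 3), with an unadjusted p of 0.0114 and an adjusted p of 0.215 from limma. *Serping1*, the inhibitor of C1, had unadjusted p above 0.05 in both tissues.

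Of the 15 tested genes of TREM2 and TYROBP partners and signalling, 2 were lower in the cortex at an unadjusted p under 0.05, *Trem2* and *Siglech*, and 3 in the hippocampus, *Siglech*, *Vav1* and *Trem2*. The shares of all genes lower at that level were 5.94% in the cortex and 6.89% in the hippocampus. *Siglech*, a receptor of the Siglec family that also signals through TYROBP, was at 4.40 ± 0.113 FPKM in Con cortex and 3.16 ± 0.954 FPKM in IR cortex, and at 3.90 FPKM in Con hippocampus and 2.64 FPKM in IR hippocampus (unadjusted p = 0.0169 and 0.00107, adjusted p = 0.250 and 0.216 from limma). *Vav1*, an exchange factor downstream of SYK, was at 0.995 FPKM in Con and 0.608 FPKM in IR in the hippocampus (unadjusted p = 0.0139, adjusted p = 0.289 from limma). *Apoe*, a ligand of TREM2, was at 1125 FPKM in Con cortex and 1113 FPKM in IR cortex. The medians of the list were -0.12 in cortex and -0.069 in hippocampus, and *Syk* had unadjusted p above 0.05 in both tissues. Without Con 1, *Siglech* and *Vav1* were the genes of the 14 then tested that stayed lower (unadjusted p = 0.00234 and 0.0402, adjusted p = 0.408 and 0.534 from limma), with a median of -0.046. In that fit 4.19% of all genes were lower at an unadjusted p under 0.05.

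Other microglial genes were set beside *Trem2*. Of the 16 tested homeostatic microglia genes other than *Trem2*, 15 were lower in IR in the cortex, 6 of them at an unadjusted p under 0.05 and none higher at that level, with a median of -0.17, where 49.5% of all genes tested were lower. Past that unadjusted level, 5.94% of all genes were lower and 8.16% higher. In the hippocampus 14 of 16 were lower, 8 of them at an unadjusted p under 0.05 and 1 higher, *Fcrls*, with a median of -0.26, where 52.7% of all genes tested were lower. The shares of all hippocampus genes past the unadjusted level were 6.89% lower and 7.06% higher. Without Con 1 the hippocampus counts were 7 lower, against 4.19% of all genes, and 0 higher, with a median of -0.22. *Csf1r*, the receptor for the survival factors of microglia, was at 22.3, 20.5 and 24.2 FPKM in Con hippocampus and at 12.03, 11.7 and 12.2 FPKM in IR hippocampus, and it fell by 0.84 on the log2 scale (SE 0.07, adjusted p = 0.0126 from limma). Without Con 1 the log2 change of *Csf1r* was again -0.84, with an adjusted p of 0.0571 from limma, and no gene of the list passed the adjusted test.

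Summed over the 17 listed genes other than *Trem2*, these markers were at 162, 156 and 157 FPKM in Con cortex and at 122, 152 and 117 FPKM in IR cortex. IR 2, the cortex library with the highest choroid plexus sum, was close to Con for this sum, whereas its *Trem2* level, 6.45 FPKM, was that of IR 1 and IR 3. In the hippocampus, where *Trem2* in Con 2 was near the IR libraries, the sums were 163, 153 and 162 FPKM in Con and 120, 129 and 125 FPKM in IR, without overlap, and Con 1 was not set apart. *Csf1r* was at 8.84, 18.0 and 8.89 FPKM in IR cortex, against 19.8 to 21.1 FPKM in Con cortex. *Spi1* and *Irf8*, which encode transcription factors of microglia, had unadjusted p above 0.05 in both tissues. The part of the number of microglia in the level of *Trem2* was not tested.

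**Figure D4:**
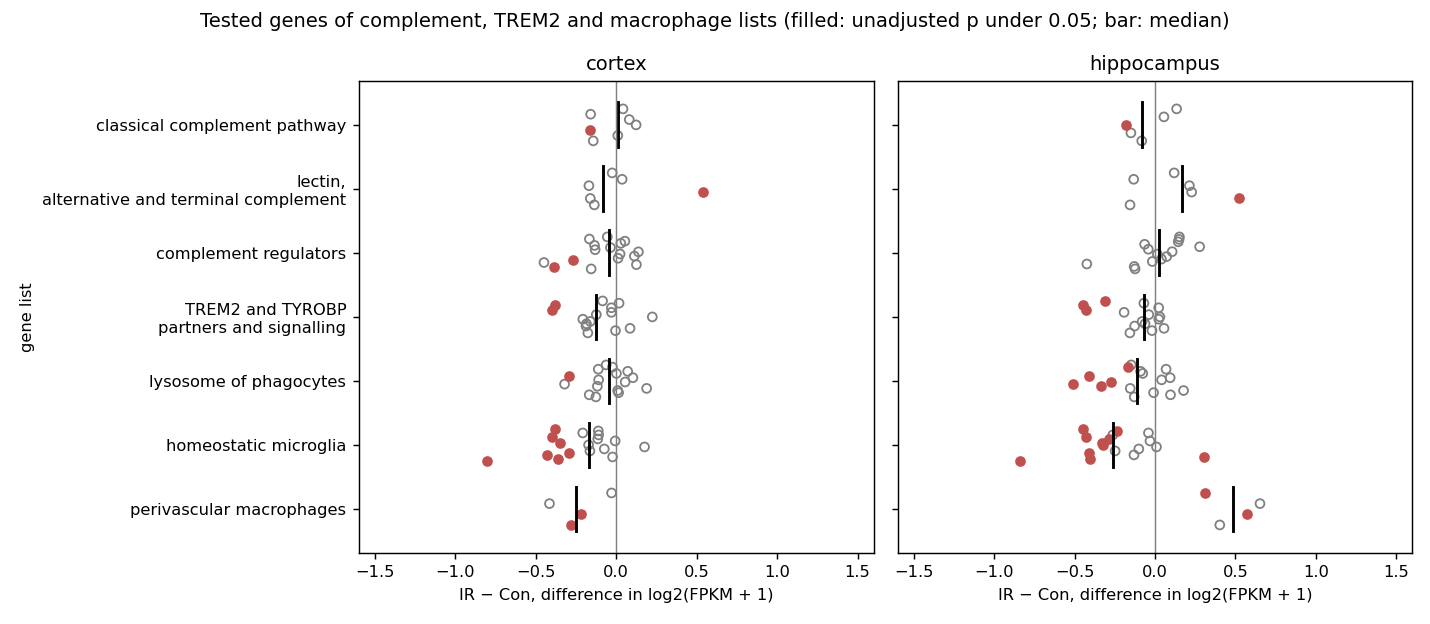
Difference between IR and Con in log2(FPKM + 1) for each tested gene of 7 lists in the cortex and the hippocampus, filled where the unadjusted limma p was under 0.05, with the list's median as a bar. Homeostatic microglia genes lie mostly below 0 in both tissues (medians -0.17 and -0.26 with *Trem2* included), *Cfp* is the filled point at 0.54 and 0.52, and the 4 tested perivascular macrophage genes lie below 0 in the cortex and above 0 in the hippocampus.

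Genes of phagocytic receptors and their bridging molecules showed no common direction. At an unadjusted p under 0.05, 5.94% of all genes tested were lower and 8.16% higher in cortex, and 6.89% and 7.06% in hippocampus. Of 21 tested in each tissue, 2 were higher and 0 lower in the cortex at an unadjusted p under 0.05, and 2 were higher and 1 lower in the hippocampus, with medians of 0.013 and 0.00071. Without Con 1 the hippocampus counts were 2 and 2 and the median 0.0044. Of 16 tested lysosomal genes of phagocytes, 1 was lower in cortex and 5 in hippocampus, among them *Ctss*, *Ctsl*, *Ctsz* and *Lgmn*, with medians of -0.043 and -0.11. Without Con 1, 3 of the 16 were lower there, against 4.19% of all genes, and 1 was higher, with a median of -0.10. Of the genes of disease-associated microglia, 1 of 15 was lower in the cortex and 3 of 16 were higher in the hippocampus, with medians of 0.015 and 0.059 (3 of 16 and 0.092 without Con 1), and *Clec7a* and *Cst7*, which define that state, stayed below the filter.

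Among the lists of other cells, 2 of 4 perivascular macrophage genes were lower in the cortex (median -0.25) and 2 of 4 higher in the hippocampus (median 0.49) at an unadjusted p under 0.05. Across all tested genes, 5.94% were lower and 8.16% higher at that level in cortex, and 6.89% and 7.06% in hippocampus. The counts of lower and higher genes at that level were 0 and 1 of 8 astrocyte genes in cortex and 3 and 0 in hippocampus (medians -0.011 and -0.069). Reactive astrocyte genes gave 0 and 1 of 7 in both tissues (medians 0.11 and 0.13), and oligodendrocyte genes 0 and 3 of 7 in cortex and 2 and 0 in hippocampus (medians 0.19 and -0.23). Endothelial and pericyte genes gave 0 and 2 of 7 in both tissues (medians 0.12 and 0.10), and meningeal fibroblast genes 0 and 0 of 8 in the cortex and 0 and 1 of 8 in the hippocampus (medians -0.17 and 0.19). None of the 7 neuronal genes passed (medians -0.016 and -0.063), nor did any tested choroid plexus gene (3 in the cortex, 5 in the hippocampus, medians 0.60 and 0.18) or blood gene (2 in each, medians 0.062 and -0.26). No monocyte, neutrophil, T or B cell gene passed the filter. Without Con 1 of the hippocampus the astrocyte counts were 0 lower and 0 higher (median -0.077) and the oligodendrocyte counts 1 and 0 (median -0.11). In that fit 4.19% of all genes were lower at an unadjusted p under 0.05. The choroid plexus median turned to -0.41 and the blood median to 0.18, again with no gene past the test. The other counts were as before, with medians of 0.39 for perivascular macrophage, 0.14 for reactive astrocyte, -0.036 for neuronal, 0.12 for endothelial and pericyte and 0.22 for meningeal fibroblast genes, of which 7 were then tested.

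After the mean of each tissue was removed, the 3 C1q chains had correlations of 0.398 to 0.794 with each other over the 12 libraries, *Aif1* and *Itgam* of 0.841, and *Trem2* and *Tyrobp* of 0.247. The points share libraries, groups and the scaling of each library, so these values are a description. Of 13640 genes, those most like the mean of the C1q chains were *Cenpb* (r = 0.938), *Ntmt1* (0.927), *Eno3* (0.918), *Park2* (0.915) and *Filip1* (0.907). Those most like *C4b* were *Fn1* (r = 0.852), *Nr4a2* (0.828), *Polk* (0.825), *Armcx6* (0.824) and *Gpr176* (0.823). These genes were picked as the highest of 13640 correlations, which by itself raises r, and none of them was tested.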

How the data were processed

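Poly(A) selection and an RNeasy Lipid Tissue kit are named in the study's methods, total RNA and Trizol in the labels; which holds is not settled here. The authors trimmed reads with FASTX_Trimmer and BBMap, aligned them with TopHat (build mm10 per the submitters' processing notes) and deposited FPKM from Cufflinks after a geometric normalization run in edgeR. Versions and annotation are not given in the sources used here. Libraries were grouped by their labels, and no 2 held identical values.

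Genes that reached 0.5 FPKM in 3 or more of a tissue's 6 libraries were tested on log2(FPKM + 1) with limma 3.58.1 in R 4.3.3 (variance trend, robust prior, Benjamini-Hochberg adjustment over all tested genes), which understates changes of low genes. The interaction and the tissue difference were fitted over 12 libraries. The steps were tested on simulated data. The smallest p of an exact permutation test with 3 against 3 libraries is 0.1. Depth was estimated from the steps between low FPKM values and GENCODE M21 lengths, and covers counting error only.

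The genes and the lists were chosen with earlier results of these data known. All 10 genes are reported, with list genes past the adjusted test, up to 3 complement or TREM2 list genes of lowest unadjusted p per list and tissue, and fixed direct partners. Other genes were named after their values were seen, and a few list genes are counted but not reported by name here. The alternatives were a pseudocount of 0.1, no filter, at least 1 FPKM in every library, quantile normalization, limma without trend or robust prior, the library number as a block, all 12 libraries in 1 fit, and each library left out. Figures were drawn with matplotlib 3.10.9.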

Additional observations from a re-analysis of the deposited data

How the results depend on the processing

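The alternatives that kept all libraries left the directions of *Trem2*, *C1qc* and *Itgam* between IR and Con as they were in both tissues, and *C4b* stayed higher in the Con hippocampus under every one and without each Con library. In the hippocampus *C1qc* lost its unadjusted p under 0.05 in limma without trend or robust prior and with the replicate block. The adjusted p of *Trem2* in the cortex was 0.0331 to 0.0401 with a pseudocount of 0.1, the stricter filter or quantile normalization, and its log2 change was -0.38 with an adjusted p of 0.0891 without a filter, 0.0683 in limma without trend or robust prior, 0.0857 with the replicate block and 0.248 in the joint fit. Quantile normalization turned the small log2 differences of *C1qb* in the cortex (-0.0056), of *C1qc* in the interaction (0.031) and of *C1qb* (-0.047), *C1qc* (-0.0087) and *Tyrobp* (-0.022) between the tissues. The cause was not tested.

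Of all genes tested, those with an adjusted p under 0.05 in the cortex numbered 102, and 24 without a filter and 22 in limma without trend or robust prior. In the hippocampus there were 4, and 2 with the stricter filter, 1 with the replicate block and 74 in the joint fit. For the interaction there were 12, and 7 without a filter, 19 with the stricter filter, 0 in limma without trend or robust prior and 19 with the replicate block.

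Leaving out each library in turn gave 16 to 78 such genes in the cortex, with the lowest count without IR 1, 0 to 880 in the hippocampus, with 880 without Con 3 and 0 without any of the IR libraries, and 0 to 487 for the interaction, with 487 without hippocampus Con 3. Genes of the 9 with an unadjusted p under 0.05 numbered 1 to 4 in the cortex (4 without IR 2, where 11.7% of all genes tested passed, and 1 without IR 1, where 8.69% did) and 0 to 4 in the hippocampus (4 without Con 2, 9.30%, and 0 without Con 1, 9.13%, or IR 2, 9.79%). They numbered 0 to 1 for the interaction (*Trem2* without hippocampus Con 2, 8.56%) and 1 to 3 between the tissues (3 without hippocampus Con 1, 48.7%). The log2 change of *Trem2* in the cortex was -0.42 to -0.36. Values that turned direction had log2 ranges that included 0. Between IR and Con these were *C1qb* (-0.050 to 0.089), *C4b* (-0.19 to 0.23) and *Tyrobp* (-0.12 to 0.10) in the cortex and *C1qa* (-0.20 to 0.092), *C4b* (-0.0056 to 0.22), *Cd68* (-0.11 to 0.22) and *Tyrobp* (-0.13 to 0.019) in the hippocampus. For the interaction they were *Aif1* (-0.27 to 0.081), *C1qa* (-0.052 to 0.24), *C1qc* (-0.080 to 0.026), *C4b* (-0.099 to 0.32), *Trem2* (-0.26 to 0.076) and *Tyrobp* (-0.17 to 0.051). Between the tissues they were *C1qa* (-0.21 to 0.075), *C1qb* (-0.073 to 0.094), *Trem2* (-0.30 to 0.040) and *Tyrobp* (-0.12 to 0.098).

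Libraries of the same number did not deviate together. The correlation of their deviations from the group means was -0.39 to 0.11 between Con and IR and -0.083 to 0.17 between the tissues, so the numbers were not taken as pairs. With the number as a block, 71 genes passed the adjusted test in the cortex and 2 of the 9 genes had an unadjusted p under 0.05 in each tissue, against 13.3% of all genes in cortex and 10.1% in hippocampus, where *C1qc* was the gene lost.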

Other observations

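The genes named here were chosen after their values were seen, and the tests in this section are from fits with all libraries. In the hippocampus 3 of the 16 tested disease-associated microglia genes were higher in IR at an unadjusted p under 0.05, against 7.06% of all genes. In each of them the groups did not overlap, and the share of all genes with every IR library above every Con library was not counted. *Lyz2*, lysozyme of macrophages and activated microglia, was at 2.75, 1.37 and 2.58 FPKM in Con and at 10.1, 5.91 and 5.24 FPKM in IR, a log2 change of 1.30 (SE 0.24, unadjusted p = 0.000725, adjusted p = 0.214 from limma). *Spp1*, osteopontin, was at 1.095 FPKM in Con and 1.87 FPKM in IR, and *Csf1*, a ligand of CSF1R, at 6.85 FPKM in Con and 8.46 FPKM in IR (unadjusted p = 0.00624 and 0.00829, adjusted p = 0.257 and 0.262 from limma). In the cortex the Con mean of *Lyz2* was 3.70 ± 0.706 FPKM and the IR mean 4.54 ± 0.444 FPKM (SD, n = 3), with overlap.

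Of 8 listed genes of perivascular macrophages, the macrophages along brain vessels, 4 were tested, all with negative log2 changes in the cortex and positive ones in the hippocampus, 2 of them with an unadjusted p under 0.05 in each tissue. At that level 5.94% of all genes were lower in the cortex and 7.06% higher in the hippocampus. Of 8 meningeal fibroblast genes, 8 had log2 changes below 0 in the cortex, *Slc6a13* only by -0.00070, and 7 had log2 changes above 0 in the hippocampus (medians -0.17 and 0.19), with 0 and 1 of them past the unadjusted test, and their part in the macrophage values was not tested. *Cd163*, below the filter, did not share this, at 0.232 FPKM in Con cortex, 0.132 FPKM in IR cortex, 0.235 FPKM in Con hippocampus and 0.140 FPKM in IR hippocampus (unadjusted p = 0.0412 and 0.0860, adjusted p = 0.399 and 0.485 from limma without a filter). *Mrc1*, the mannose receptor, was at 1.03, 0.811 and 0.970 FPKM in Con cortex and at 0.663, 0.720 and 0.598 FPKM in IR cortex, and at 0.309, 0.173 and 0.603 FPKM in Con hippocampus and 1.38, 1.01 and 0.695 FPKM in IR hippocampus. Its log2 change was -0.22 in cortex and 0.57 in hippocampus (unadjusted p = 0.0442 and 0.00835, adjusted p = 0.337 and 0.262 from limma), and the interaction of irradiation and tissue had an unadjusted p of 0.00108 and an adjusted p of 0.201. Over the 8 listed genes the sum was 5.49 to 5.89 FPKM in Con cortex and 3.99 to 4.76 FPKM in IR cortex, and 2.96 to 5.51 FPKM in Con hippocampus and 5.13 to 8.81 FPKM in IR hippocampus. *Mfge8*, which bridges phosphatidylserine on dying cells to phagocytes, was at 59.4 FPKM in Con hippocampus and 66.7 FPKM in IR hippocampus, and *Tyro3*, a receptor for other such bridging molecules, at 26.8, 23.1 and 28.9 FPKM in Con and 18.9, 20.05 and 22.7 FPKM in IR (unadjusted p = 0.0245 and 0.00928, adjusted p = 0.321 and 0.270 from limma).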
